A study of Mus musculus with 32 samples.

Results

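Among the 8 vehicle liver libraries of experiment P, 3 carried high values of the acute phase genes Orm2 and Saa3, and the 242 genes listed for that experiment are described here across these 8 of the 32 libraries of the series. The 3 libraries were chosen by their measured Orm2 value, at a threshold of 100: libraries 33, 34 and 35 reached it, and libraries 21, 22, 26, 31 and 36 did not. Because the split was selected on a value from the same libraries, every difference between the 3 and the 5 is a description and carries no test. Orm2 is left out of all counts, which leaves 241 genes.

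The study asked how sodium oxybate (SXB), a narcolepsy drug that supplies gamma-hydroxybutyrate as its sodium salt, acts on body weight in C57BL/6J mice while obesity develops and once it is established. Total liver RNA was sequenced in 4 groups of 8 libraries, vehicle and SXB in each of the experiments lettered P and T. The labels do not say which form of obesity each letter stands for, give no diet, age or sex, and do not state that the libraries are separate mice. The vehicle libraries had no SXB, and the 8 SXB libraries of P serve only as a separate check at the end; T was not analysed here.

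The authors listed each of the 242 genes because it differed between SXB and vehicle in these very libraries, 201 lower and 41 higher with SXB in the authors' deposited table. A gene that is high in some vehicle libraries is more easily listed as lower with SXB, so the counts below are counts among genes preselected in a way that favours the pattern described. Values are the authors' normalised expression values on a linear scale, whose exact unit and sequencing depth are unknown, so levels are compared between libraries and not between genes. Without Orm2, the listed values of libraries 33, 34 and 35 summed to 555.7, 728.9 and 567.4, against 249.3 to 305.2 in the other vehicle libraries. Between 24 and 39 genes per vehicle library were listed at exactly 0, which can be a failed estimate as well as a low level. In bulk tissue, fewer cells of a type and less RNA per cell cannot be told apart. No listed gene belongs to the lists used here of hepatocyte identity, endothelial, stellate, B or T cell genes, so the liver label could not be checked with these values. These lists do not hold every gene of those cells, and some lymphocyte genes outside them are among the listed genes.

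The acute phase response is a change in the proteins that the liver secretes when macrophages and other cells release interleukin 6, interleukin 1 and related signals. In hepatocytes these signals reach transcription factors of the STAT3, NF-kB and C/EBP families, which switch on genes such as the orosomucoids and serum amyloid A. Orm2 encodes an orosomucoid (alpha-1-acid glycoprotein), a plasma carrier protein made by hepatocytes. Saa3 encodes a serum amyloid A that macrophages and adipose tissue make as well as hepatocytes.

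The promoters of both marker genes are shown because these genes define the split, and the letters of STAT, NF-kB and C/EBP motifs were searched in them. They are RefSeq promoter windows on GRCm38.p6, 250 bases before to 50 after the start, written 5′ to 3′ on the gene's strand; capitals mark the C/EBP match, the 1 kind found in these windows. The Orm2 window lies at chr4:63362199-63362498 on the plus strand and the Saa3 window at chr7:46715627-46715926 on the minus strand.
Orm2: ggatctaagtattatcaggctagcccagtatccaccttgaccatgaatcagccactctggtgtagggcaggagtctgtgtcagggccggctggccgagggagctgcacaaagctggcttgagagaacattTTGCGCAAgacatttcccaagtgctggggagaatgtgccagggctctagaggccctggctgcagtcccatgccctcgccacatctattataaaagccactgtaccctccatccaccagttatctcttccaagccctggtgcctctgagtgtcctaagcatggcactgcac
Saa3: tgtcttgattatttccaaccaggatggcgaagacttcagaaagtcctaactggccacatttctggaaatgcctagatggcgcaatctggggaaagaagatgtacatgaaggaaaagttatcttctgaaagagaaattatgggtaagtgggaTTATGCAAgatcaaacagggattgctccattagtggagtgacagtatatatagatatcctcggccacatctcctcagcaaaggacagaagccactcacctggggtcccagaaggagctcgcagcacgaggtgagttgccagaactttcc

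The letters searched on both strands were TTGCNNAA for C/EBP, TTCNNNGAA for STAT and a longer motif for NF-kB; the Saa3 match lies on the reverse strand. This motif is common: 10.8% of all 32851 promoter windows of the table hold it, as do 13.6% of the 184 windows of the listed genes other than Orm2 and 17.6% of the 34 windows of genes with all 3 libraries above (defined below). Over the same sets of windows, in that order, the STAT letters are in 8.30%, 7.61% and 5.88%. The NF-kB motif is in 4.51%, 8.15% and 8.82%. In the 34 windows these shares stand for 6 with C/EBP letters, 2 with STAT letters and 3 with the NF-kB motif, and no test was made. Of 2 windows each, 1 of Cidec holds the C/EBP letters and 0 of Cdkn1a. A match describes letters in a window and says nothing of binding, and no match says nothing of the factor.

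The acute phase markers separated the vehicle libraries without overlap. Orm2, at chromosome 4, 63362449 to 63365878 on the plus strand (GRCm38, GENCODE M21), was 539.57, 896.83 and 140.09 in libraries 33, 34 and 35 and 9.36, 10.41, 9.23, 8.03 and 8.14 in libraries 21, 22, 26, 31 and 36. The value just inside the threshold was 140.09, in library 35, and the value just outside it was 10.41, in library 22, so no vehicle library lay near the threshold of 100. The 5 low libraries differed little in Orm2, while library 34 was 6.40-fold above library 35. Close orosomucoid and amyloid paralogs share sequence with both genes, so the split of reads between copies is uncertain.

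Saa3, which the threshold did not use, had the same order over libraries 33, 34 and 35 as Orm2, though not over the 5 low libraries. At chromosome 7, 46711998 to 46715700 on the minus strand, it was 82.26, 265.09 and 23.97 in libraries 33, 34 and 35 and 7.81, 7.04, 8.60, 4.32 and 3.33 in the 5 others, in the library order given for Orm2, which is kept from here on. All 3 lay above all 5, the lowest of the 3 being 2.79-fold above the highest of the 5. The difference of the means of log2(value + 1), the scale of all differences below, was 3.57, the largest of the 241 genes. It was 2.72 without library 34. Saa3 is the 1 gene of the acute phase list besides Orm2 in the table, so the state rests on this pair of markers.

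**Figure D1:**
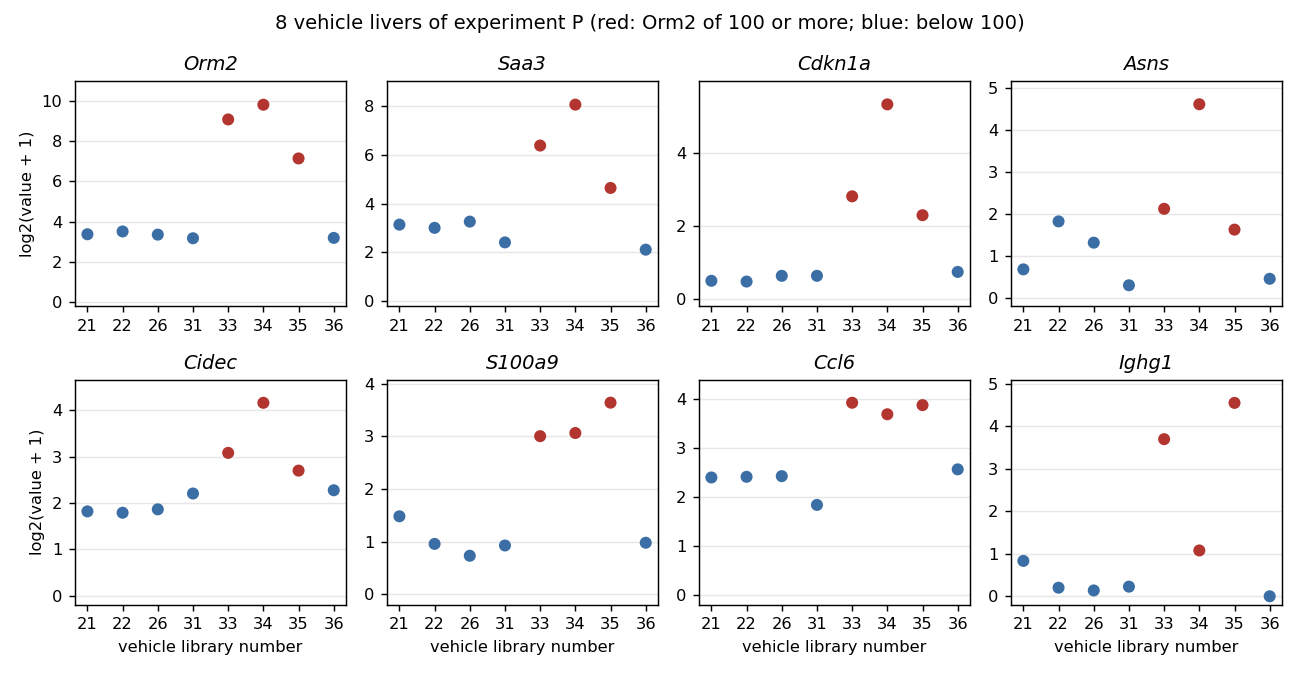
Values of 8 genes in each vehicle library of experiment P as log2(value + 1), 1 point per library, red for the 3 libraries with Orm2 of 100 or more and blue for the 5 below. In every panel but that of Asns the 3 red points lie above the 5 blue ones; library 34 is highest for Orm2, Saa3, Cdkn1a, Asns and Cidec, and library 35 for S100a9 and Ighg1.

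The listed genes leaned towards the high-Orm2 libraries. Of the 241 genes, 179 had the higher mean in the 3 libraries, 61 the lower mean and 1 equal means, and the median difference was 0.09. In 42 genes all 3 libraries lay above all 5 (17.4% of the genes), and in 0 genes all 3 lay below (0%). At least 1 higher on the log2 scale were 18 genes (7.47%), 12 of them without overlap, and at least 1 lower was 1 gene (0.415%). These shares are the background for the gene groups below, and since the contrast chose the libraries, nothing further is read from them. All 42 genes belong to the 200 listed as lower with SXB in the authors' deposited table, 21% of those, and 0 belong to the 41 listed as higher.

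Most listed genes are low: 181 have a vehicle mean below 1, where log2(value + 1) understates differences. Of the 60 genes with a vehicle mean of at least 1, 18 had all 3 libraries above all 5, and the median difference of the 60 was 0.57. That mean includes the 3 libraries, so some genes pass only through their high values there, which tends to raise both figures. Cdkn1a and 3930402G23Rik, for example, have means of 0.51 and 0.07 in the 5 low-Orm2 libraries. List medians below are to be read beside both 0.09 and 0.57, and neither is a neutral background. When each library is shifted to the same median, 26 of the 42 keep that place and the median difference turns to -0.06, because the medians of the 3 libraries were higher by 0.141 before the shift. That shift pushes genes listed at or near 0 down in the 3 libraries by construction, and 56 genes then lie below in all 3.

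**Figure D2:**
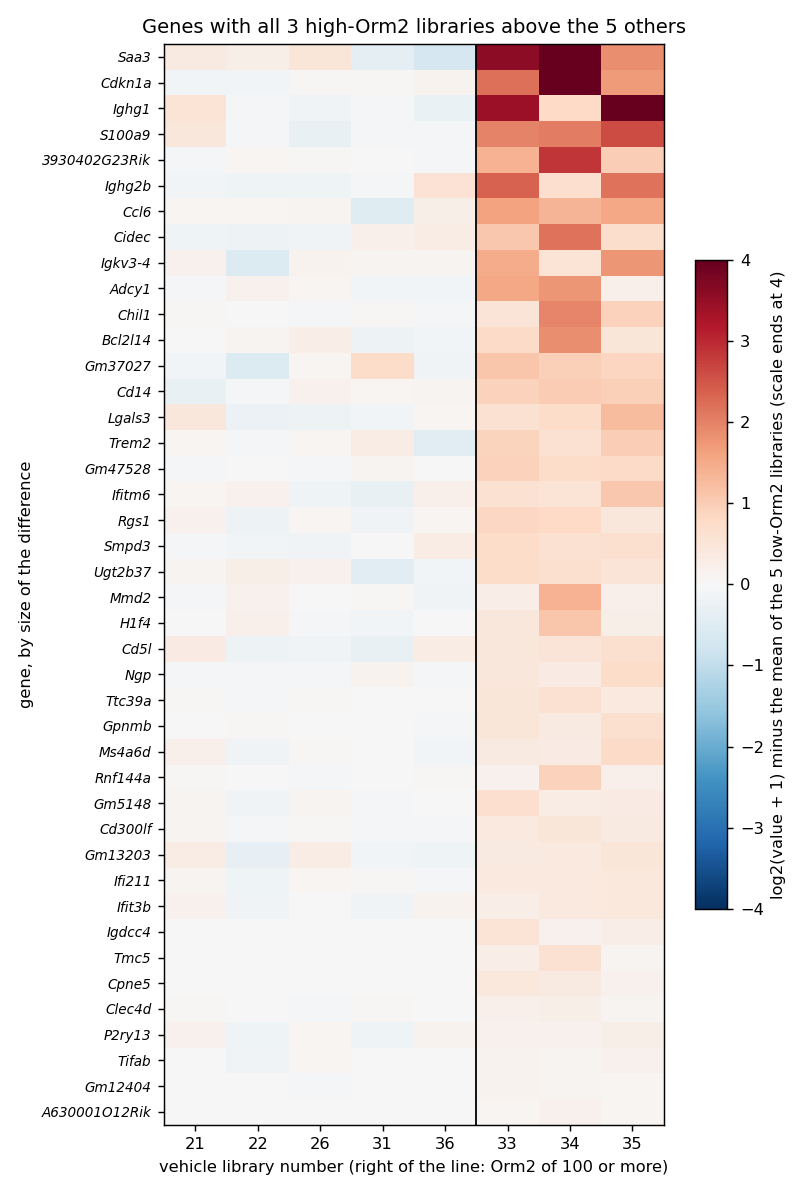
The 42 genes with all 3 high-Orm2 vehicle libraries above the 5 others, in order of the size of the difference, as log2(value + 1) minus the mean of the 5 low-Orm2 libraries; colours end at 4. The row of Ccl6 is even over libraries 33, 34 and 35, Cdkn1a and Cidec are darkest in library 34, and Ighg1 is darkest in library 35.

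Cdkn1a, Cidec, Asns and Mthfd2 were each highest in library 34. They come from the lists of cell cycle arrest, lipid storage, and amino acid and unfolded protein stress. Each of these lists has 1 or 2 listed genes. Cdkn1a, which encodes the cyclin kinase inhibitor p21, was 6.03, 39.43 and 3.91 in the 3 libraries and 0.41, 0.39, 0.55, 0.55 and 0.67 in the 5. The lowest of the 3 was 5.84-fold above the highest of the 5. The difference was 2.89, and 1.96 without library 34. An antisense transcript model, AC167363.2, overlaps Cdkn1a, and the sources used here do not state whether counting used strand. Cdkn1a is the 1 listed gene of the list of p53 and arrest genes used here, which does not hold every p53 target. Outside that list, the p53 targets Pmaip1 and Dram1 did not separate the groups. Pmaip1 differed from the mean of the 5 by -0.08, 0.03 and -0.02 in libraries 33, 34 and 35. Dram1 had a difference of 0.09.

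Cidec, which coats lipid droplets and helps them fuse, was 7.45, 16.87 and 5.48 against 2.52, 2.45, 2.63, 3.60 and 3.83. The groups did not overlap, and the difference was 1.32, or 0.90 without library 34. Cidec is the 1 listed gene of both the lipid storage and the adipose tissue list.

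Asns, which encodes asparagine synthetase, a target of the amino acid stress factor ATF4, was 3.36, 23.61 and 2.09 against 0.60, 2.54, 1.49, 0.23 and 0.37. Library 34 was far the highest, and library 22 lay above library 35, so the groups overlapped. The difference of 1.88 became 0.96 without library 34. Mthfd2, a mitochondrial folate enzyme that ATF4 also drives, was 0.27, 1.73 and 0.23 against 0.29, 0.31, 0.35, 0.11 and 0.12, and its difference of 0.40 became 0.02 without library 34. Both listed members of the stress list thus had a higher mean, as did 179 of all 241 genes, and in neither did the groups separate. Derl3, which helps degrade misfolded secretory proteins, is counted with the plasma cell genes below and had a difference of -0.97.

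Several other genes peaked in library 34. Chil1, a chitinase-like protein secreted by macrophages and neutrophils in inflammation, was 0.52, 3.12 and 1.02 against at most 0.10, a difference of 1.14 that became 0.73 without library 34. Bcl2l14, of the BCL2 family of cell death regulators, was 1.59, 4.52 and 1.13 against 0.51, 0.65, 0.83, 0.33 and 0.41, a difference of 1.02 that became 0.61. Adcy1, an adenylate cyclase, was 2.17, 2.63 and 0.24 against at most 0.22, so library 35 lay barely above the 5. These 3 genes had no overlap between the groups.

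Gsta1, a glutathione transferase that conjugates foreign compounds, was 1.07, 3.74 and 0.69 against 0.30, 0.73, 0.83, 0.39 and 0.36; its difference of 0.76 became 0.31 without library 34. Of the 3 listed drug metabolism genes, 1 had all 3 libraries above, the glucuronosyltransferase Ugt2b37, at 1.83, 1.66 and 1.42 against 0.28 to 1.00. Cyp4x1 had a difference of -0.0047.

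Beside these results, library 34 stood apart among the vehicle libraries in mt-Co3. It encodes subunit 3 of cytochrome oxidase in the mitochondrial genome and was 8.73 there and between 0.02 and 0.15 in the 7 other vehicle libraries. In the SXB libraries it was 44.31, 42.98 and 4.88 in libraries 24, 29 and 28 and at most 0.14 in the others. Its difference of 0.98 became -0.09 without library 34. It overlaps mt-Atp6 in the annotation. Its part in the values of library 34 was not tested. Without library 34, the differences of Saa3, Cdkn1a and Cidec were 2.72, 1.96 and 0.90, as given above.

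Of the neutrophil genes, S100a9, Ngp and Clec4d had all 3 libraries above all 5, and S100a9 and Ngp were highest in library 35. S100a9, which encodes a subunit of calprotectin and is abundant in neutrophils, was 7.01, 7.35 and 11.45 against 1.79, 0.94, 0.66, 0.90 and 0.97. The lowest of the 3 was 3.92-fold above the highest of the 5, and the difference was 2.22, between 2.02 and 2.34 whichever library was left out. Ngp, a granule protein of maturing neutrophils, was 0.42, 0.29 and 0.69 in the 3 libraries, 0.14 in library 31 and listed at 0 in the other low libraries. Of 4 listed neutrophil genes 3 had all 3 libraries above, with a median difference of 0.35, above the 0.09 of all genes and below the 0.57 of genes with a vehicle mean of at least 1. After the shift to the same median, 2 of the 4 had all 3 above. The third, the lectin receptor Clec4d, was 0.27, 0.30 and 0.19 against 0.04 to 0.14. The formyl peptide receptor gene Fpr2 was 0.42, 0.46 and 0.79 against 0.43, 0.42, 0.27, 0.74 and 1.17, with no separation. The summed level of the list was 8.12 to 13.12 in the 3 and 0.97 to 2.35 in the 5. Most of the sum in the 3 is S100a9, so it largely repeats that gene.

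Genes of monocytes and recruited macrophages had the higher mean in 9 of 9 listed members, as did 179 of all 241 genes. Their median difference was 0.50, and 5 of the 9 had all 3 libraries above, against 42 of all 241. Cd14, a coreceptor for bacterial lipopolysaccharide, was nearly level over the 3 at 2.77, 3.0 and 2.85, against 0.61, 0.90, 1.21, 1.09 and 1.16. Its difference was 0.97. Lgals3, which encodes galectin-3, was 4.94, 5.56 and 8.35 against 4.33, 2.36, 2.44, 2.66 and 3.15, so library 21 came close to library 33. Trem2, a lipid-sensing receptor of macrophages, was 2.02, 1.50 and 2.24 against 0.72, 0.59, 0.72, 1.02 and 0.20. Gpnmb, a glycoprotein of lipid-laden macrophages, was 0.45, 0.34 and 0.63 against at most 0.09, and the inhibitory receptor gene Cd300lf was 0.84, 0.94 and 0.81 against 0.32 to 0.52.

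In the other 4 genes of that list the groups overlapped. Lyz2, lysozyme of myeloid cells, was 20.64, 18.79 and 33.33 against 22.29, 10.74, 11.76, 16.26 and 24.64, and Ctss, the protease cathepsin S, was 9.85, 8.66 and 13.34 against 5.05 to 9.32. Libraries 21 and 36 were the upper of the 5 for Lyz2 and reached into the range of the 3. The summed level of the list was 68.9 to 115.9 in the 3 and 42.6 to 74.8 in the 5.

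All 6 listed markers of Kupffer cells, the resident liver macrophages, had a higher mean in the 3, as did 179 of all 241 genes. Their median difference was 0.29, and 1 of 6 had all 3 above, near the 17.4% of all genes. That gene was Cd5l, a secreted protein of tissue macrophages, at 16.38, 17.15 and 18.86 against 14.93, 10.04, 10.65, 9.43 and 14.68. C1qb, a chain of complement C1q, was 63.38, 48.87 and 76.32 against 50.23, 32.77, 35.01, 43.02 and 44.51. The scavenger receptor gene Marco, at 1.57, 3.08 and 2.70 against 3.52, 1.50, 1.89, 1.79 and 3.05, and Timd4, a receptor for dying cells, had differences of 0.05 and 0.06. Both turn negative when each library is shifted to the same median, and then 0 of the 6 have all 3 above. The summed level was 72.4 to 101.0 in the 3 and 46.2 to 71.5 in the 5.

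Of 5 listed cytokines and chemokines, Ccl6 alone had all 3 libraries above all 5. Ccl6, a chemokine of myeloid cells, was 14.12, 11.85 and 13.62 against 4.26, 4.31, 4.36, 2.57 and 4.90, with a difference of 1.50. The 3 libraries were close to each other, and the lowest was 2.42-fold above the highest of the 5. The gene overlaps the antisense model E230016K23Rik. Il1b, the cytokine interleukin 1 beta, was 3.80, 3.37 and 3.34 against 3.20, 2.75, 3.47, 1.73 and 2.44, so library 26 lay within the range of the 3. Its difference of 0.30 became 0.19 without library 31. The chemokine genes Ccl7, Ccl3 and Cxcl13 differed by 0.17, -0.02 and -0.17, and Ccl7, at 0.68 in library 35 and at most 0.17 elsewhere, by -0.04 without that library. The median difference of the 5 genes was 0.17.

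**Figure D3:**
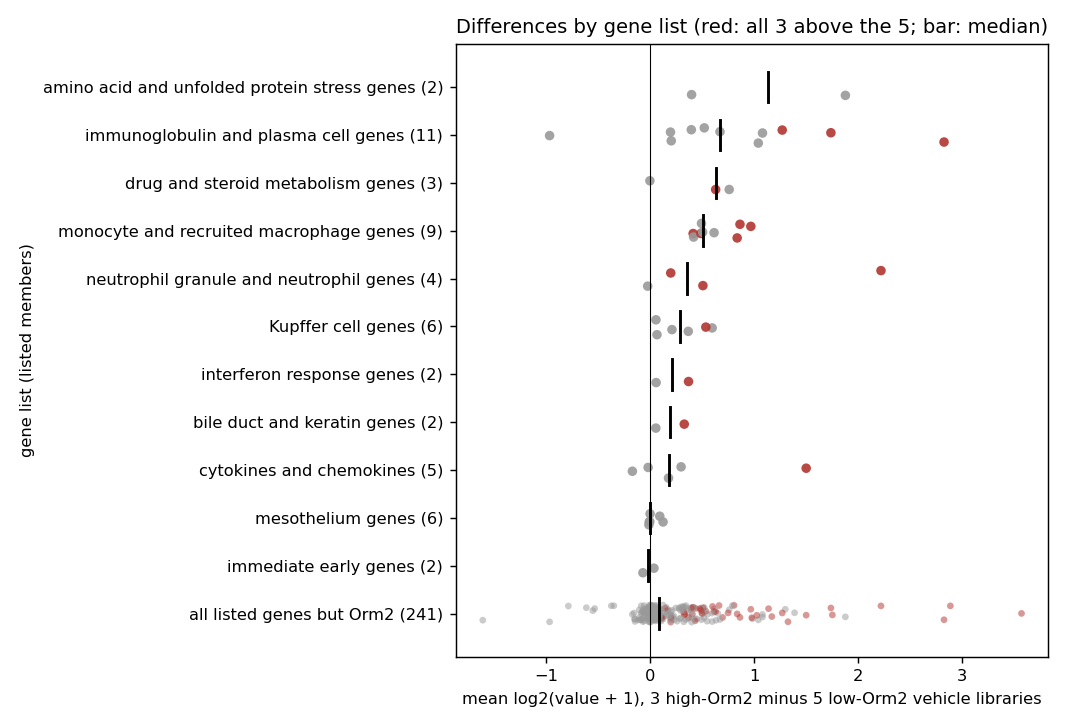
Difference of mean log2(value + 1), 3 high-Orm2 minus 5 low-Orm2 vehicle libraries, 1 point per listed gene, for lists with at least 2 listed genes and, at the bottom, all 241 genes; red points are genes with all 3 libraries above all 5, and bars are medians. The monocyte and immunoglobulin medians of 0.50 and 0.67 lie to the right of the 0.09 of all genes, though the median of the 60 genes with a vehicle mean of at least 1 is 0.57; the mesothelium median lies at 0.

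The immunoglobulin genes Ighg1, Ighg2b, Igkv3-4 and Igkc were higher in libraries 33 and 35 than in library 34, while the variable segment Igkv4-61, at 0.81, 1.06 and 0.30 against at most 0.35, was highest in library 34. Ighg1, the constant region of the IgG1 heavy chain, was 11.94, 1.11 and 22.37 against 0.78, 0.15, 0.10, 0.17 and 0, so library 34 lay only just above library 21. The difference was 2.83. Ighg2b, the constant region of IgG2b, was 6.15, 1.25 and 5.40 against 0.30, 0.24, 0.24, 0.32 and 1.08, and the variable segment Igkv3-4 was 3.11, 1.14 and 3.95 against at most 0.66. Their differences were 1.74 and 1.27.

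In Igkc and Ighg2c library 34 fell within the range of the 5. Igkc, the constant part of kappa light chains, was 70.18, 17.08 and 93.53 against 15.03, 21.55, 17.44, 24.66 and 46.71, and Ighg2c was 2.39, 1.24 and 3.79 against 0.10, 0.24, 0.14, 0.05 and 4.81. Library 36 held the highest of the 5 for both. Of 11 listed immunoglobulin and plasma cell genes 10 had the higher mean, as did 179 of all 241 genes. The median difference of the 11 was 0.67, and 3 of them had all 3 libraries above, against 42 of all 241. Without library 34 these were 5 genes and a median of 1.06, and without library 36 they were 5 genes and a median of 1.08. After the shift to the same median, 2 of the 11 had all 3 above. Derl3, which helps degrade misfolded secretory proteins, was the member with the lower mean, at 3.05, 0.87 and 5.25 against 4.22, 18.90, 17.14, 2.02 and 2.14. The summed level of the list was 26.3 to 146.6 in the 3 and 24.1 to 68.7 in the 5, so the lowest of the 3 fell among the 5. Immunoglobulin segments resemble each other in sequence, so reads may have been divided among them uncertainly.

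The 3 libraries did not hold these genes in 1 order. Of the 42 genes without overlap, 16 were highest in library 34, 15 in library 35 and 11 in library 33. Over all 241 genes, the highest of the 3 was library 34 in 95, library 35 in 78 and library 33 in 68, which are similar shares. The order of Orm2 itself, 34 above 33 above 35, held in 13 of the 42, among them Saa3, Cdkn1a, Cidec, Adcy1, Bcl2l14 and Clec4d. The order 35 above 33 above 34 held in 10, among them Ighg1, Igkv3-4, Trem2, Ngp and Gpnmb. The order 35 above 34 above 33 held in 5, among them S100a9, Lgals3 and Cd5l. No test was made of these orders, since the libraries are single samples.

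**Figure D4:**
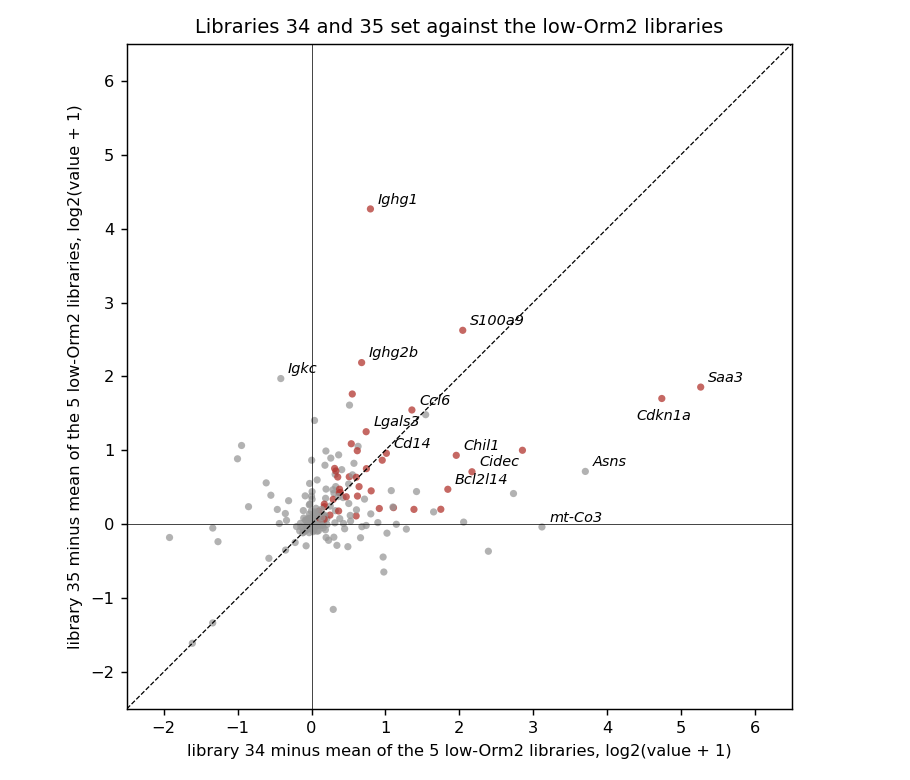
Each of the 241 genes as log2(value + 1) in library 34 (x axis) and in library 35 (y axis), each minus the mean of the 5 low-Orm2 libraries; red points are the 42 genes with all 3 libraries above, and the dashed line marks equal differences. Saa3, Cdkn1a, Asns, Chil1, Cidec, Bcl2l14 and mt-Co3 lie below the line, on the side of library 34, and Ighg1, Ighg2b, Igkc and S100a9 above it.

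The other lists differed little. Of 2 interferon response genes, Ifit3b was 1.03, 1.19 and 1.25 against 0.87, 0.50, 0.66, 0.51 and 0.85, without overlap, and Gbp5 had a difference of 0.06. Under the shift to the same median Gbp5 turns negative and the groups overlap in Ifit3b too. Some interferon-inducible genes outside that list differed more, and others did not. Ifitm6 and Ifi211 had differences of 0.75 and 0.39 without overlap. Gbp8, Gvin1 and Slfn2 had differences of 0.79, 0.63 and 0.45 with overlap, and Slfn1 and Ifi209 had 0.13 and 0.03 with overlap. Gbp2b differed from the mean of the 5 by -0.19, -0.34 and 0.05 in libraries 33, 34 and 35. The 6 listed mesothelium genes had a median difference of -0.0044 and 0 of 6 without overlap. The immediate early genes Fosb and Egr2 had differences of -0.07 and 0.03, with library 31, one of the 5, highest for both. Without library 31 these were 0.23 and 0.16, and Fosb is also positive with a smaller pseudocount. Kif23, the 1 listed member of the cell cycle list used here, had a difference of -0.11, or -0.0027 without library 36. Of the bile duct and keratin genes Tmc5 was 0.20, 0.52 and 0.08 in the 3 and listed at 0 in each of the 5, while Krt7 had a difference of 0.05, which turns to -0.09 under the shift; the separation of Tmc5 is also lost under it. The 1 gene at least 1 lower, the pseudogene Tpt1-ps3, was listed at 0 in the 3 and in libraries 22 and 36, and at 12.84, 4.66 and 2.42 in libraries 21, 26 and 31; it was chosen after its values were seen.

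The long noncoding RNA 3930402G23Rik ranked among the largest differences, at 1.81, 6.71 and 1.13 against 0.01, 0.12, 0.09, 0.08 and 0.03, a difference of 1.75. Its order over the 3 libraries was that of Orm2. Of the 42 genes, 7 are predicted models, which are counted and, apart from this one, not named.

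Whether the listed genes move with Orm2 was asked again in the 8 SXB libraries of P, which the choice of libraries did not use. There Orm2 was 57.91, 9.43, 4.78, 9.57, 163.43, 85.07, 11.65 and 5.14 in libraries 19, 20, 23, 24, 25, 28, 29 and 30. The values fall into separate sets of 5 libraries, from 4.78 to 11.65, and 3 libraries, from 57.91 to 163.43. Neither set holds 6 libraries, so a graded relation within a set cannot be tested, and the coefficients below mostly set the 3 libraries against the 5. Across SXB libraries Spearman's rho with Orm2 passed an adjusted p of 0.05 in 0 of 238 genes (0%; exact permutation test over 40320 pairings, two-sided, Benjamini-Hochberg), and 13 genes had an unadjusted p below 0.05. Pearson's r on log2(value + 1) also passed in 0 genes, with 18 at an unadjusted p below 0.05.

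Saa3 was 16.81, 4.53, 4.95, 1.95, 20.73, 15.64, 7.86 and 1.82 in the SXB libraries, so the 3 with the highest Orm2 also had the 3 highest Saa3 values. Its rho with Orm2 was 0.81 (exact permutation p = 0.0218, adjusted p = 0.644 over 238 genes). Its r was 0.89 (exact permutation p = 0.00384, adjusted p = 0.310). Without libraries 25 and 28, the farthest from the median Orm2, r was 0.81 and rho was 0.60. That leaves library 19 as the only one of the high set, with Orm2 of 57.91, so this r mostly sets library 19 against the low set. The Saa3 rho lost an unadjusted p of 0.05 in 4 of the 8 omissions of a single library. Cdkn1a was 1.61, 1.03, 0.68, 0.53, 1.71, 1.34, 1.68 and 0.52, a rho of 0.79 (exact permutation p = 0.028, adjusted p = 0.644), with library 29 of the low set among its highest. Its r of 0.75 (exact permutation p = 0.039) became 0.72 without libraries 25 and 28, again with library 19 as the only one of the high set.

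The remaining genes that separated the vehicle libraries had mixed signs in the SXB libraries. Spearman's coefficient with Orm2 was 0.50 for Cidec, 0.43 for S100a9, 0.69 for Ccl6, 0.49 for Ighg1, 0.72 for Ighg2b, 0.67 for Bcl2l14 and 0.50 for Trem2, 0.19 for Cd14, -0.01 for Chil1 and -0.12 for Lgals3. Of the 42 genes, 32 had a positive rho (76.2%) with a median of 0.49. Of the other 196 genes tested, 110 did (56.1%), with a median of 0.07. Most of those are low genes. Among genes with a vehicle mean of at least 1 the contrast of the medians was smaller, though not that of the shares. There, 16 of 18 had a positive rho (88.9%, median 0.50), against 27 of 41 other genes (65.9%, median 0.29). That vehicle mean includes the 3 high-Orm2 libraries, and several of the 18 pass only through them. Cdkn1a, Ighg1, Ighg2b and Trem2, for example, have means of 0.51, 0.24, 0.44 and 0.65 in the 5 low-Orm2 libraries. The 41 are therefore not a matched background for the 18. Genes of one library are not independent of each other, and no test was made of these differences.

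**Figure D5:**
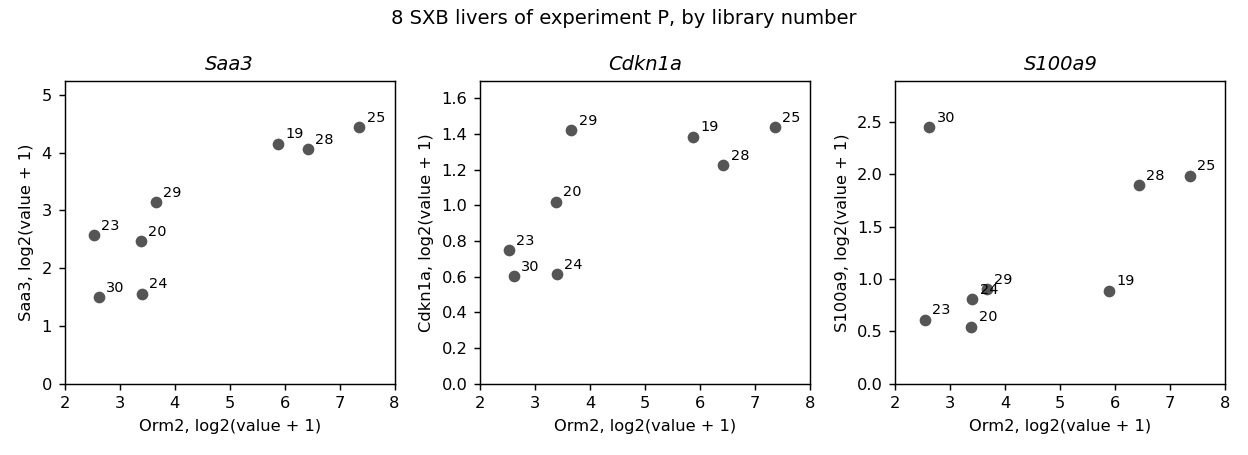
Saa3, Cdkn1a and S100a9 against Orm2 in the 8 SXB libraries of experiment P, all as log2(value + 1), 1 point per library with its number. Libraries 19, 25 and 28 stand apart on the Orm2 axis and are the 3 highest for Saa3; S100a9 is highest in library 30, which has one of the lowest Orm2 values.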

How the data were processed

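Per the labels' protocols, total RNA was isolated from liver with TRIzol and read on an Illumina HiSeq as 150-base pairs. The build GRCm38 and the tools DESeq2, RSEM, StringTie, HISAT2 and fastp appear in the submitters' processing notes, without versions or roles. The authors deposited a signal per gene and library, their own normalised expression value, rounded to 0.01, and do not state whether this is TPM or FPKM. They also deposited a ratio (fold change), its log2 value and a p-value per gene for SXB against vehicle, under a header shifted by 1 column, per the file headers and values. There, all listed genes pass a log2 fold change of 1 in size and an unadjusted p of 0.05. Depth per library is unknown, so no counting interval is given.

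Vehicle libraries of P were split at an Orm2 value of 100. Differences are those of means of log2(value + 1) and have no test. Spearman's rho and Pearson's r with Orm2 over the 8 SXB libraries used all 40320 pairings (scipy 1.17.1, numpy 2.4.6, pandas 2.3.3, Python 3.11.15), over 238 genes, after leaving out those constant in the SXB libraries. The correlation code was tested on simulated data. Nothing in the labels says that libraries are separate mice, so p-values cover only the spread among these libraries, which may be technical. The members, 28 gene lists and rules were chosen with earlier results of these data known. Named genes are the markers, the 15 largest differences among genes with all 3 libraries above all 5 and a mean of at least 1 in the 3, and up to 4 members of each list by size of difference. Models without a symbol are counted, not named, except 3930402G23Rik. Members of lists beyond 4, Tpt1-ps3, and the interferon-inducible and p53 genes from outside the lists are named after their values were seen. The 10 lists with no listed gene are B cell, T and NK cell, fatty acid and sterol, stellate, endothelial, red cell, pancreas, muscle, hepatocyte identity and circadian genes. All 242 gene identifiers matched GENCODE M21. Replicate-level similarity was checked: Spearman's rho over genes was 0.803 to 0.864 between the 3 libraries and 0.676 to 0.811 between the 5, so no library was a duplicate.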

Additional observations from a re-analysis of the deposited data

Results flagged for a closer look

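In groups of 8 libraries, the gap of the highest or lowest library to its neighbour was taken as a share of the whole range. It passed the critical value of 0.526 in 9 of 54 groups looked at. Unselected, normally spread values pass it in about 1 in 20 groups. Many genes here were chosen for large differences in these same libraries, so the count cannot be set against that rate. Library 34 stood apart in 6 of the 9: the share was 0.947 for mt-Co3 (8.73 there), 0.782 for Mthfd2 (1.73), 0.64 for Gsta1 (3.74), 0.578 for Asns (23.61), 0.565 for Tmc5 (0.52) and 0.532 for Bcl2l14 (4.52). Library 35 stood apart for Ccl7, with a share of 0.697 and a value of 0.68. Library 31, of the low-Orm2 libraries, stood apart for both immediate early genes, with a share of 0.546 for Fosb (2.19) and 0.546 for Egr2 (0.77).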

How the results depend on the processing

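Counts of genes with all 3 libraries above all 5 were 43 to 58 when 1 vehicle library was left out, 18 among genes with a vehicle mean of at least 1 and 26 after shifting each library to the same median; the 42 genes are among them in every omission by construction. Counts with all 3 below were 0 to 4 under omissions and 56 after the median shift. Genes at least 1 higher numbered 13 to 21 under omissions, 55 with a pseudocount of 0.1 and 87 with 0.01, and genes at least 1 lower 1 to 3, 4 and 17, and 2 after the median shift. The median difference was 0.06 to 0.10 under omissions, 0.57 for genes with a mean of at least 1, 0.38 and 0.56 with the smaller pseudocounts and -0.055 after the shift. Of 495 values of named genes under alternatives, 422 moved by less than the spread between libraries and 73 by more. In 23 of them, over 11 genes, the sign changed: Fpr2, Ccl7, Gbp5, Fosb, Egr2, Cyp4x1, Krt7, Msln, C1qtnf9, Gpm6a and mt-Co3, whose groups overlap. In the SXB libraries 0 genes passed in each alternative run; the Saa3 rho was 0.71 to 0.93 with 1 library left out, with exact permutation p-values from 0.00675 to 0.0881. No paired analysis was possible because the library numbers are not shared between groups. Unknown depth and the authors' preselection limit all counts.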

Other observations

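In the SXB libraries of experiment P the largest positive rho with Orm2 was that of Marco, the scavenger receptor gene of resident macrophages, at 0.88 (exact permutation p = 0.007, adjusted p = 0.644), a gene whose mean hardly differed between the high-Orm2 and low-Orm2 vehicle libraries. The largest negative rho was that of the pseudogene Obox4-ps1, at -0.93 (exact permutation p = 0.002, adjusted p = 0.531). Rgs1, a regulator of G protein signalling in leukocytes, was 3.07, 3.01 and 2.13 in vehicle libraries 33, 34 and 35 and 1.01 to 1.58 in the other 5, yet its rho with Orm2 in the SXB libraries was -0.67. These genes were chosen after their values were seen, and none passed the adjustment over 238 genes.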
